A study of Rattus norvegicus with 3 samples.

Results

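The SWI/SNF or BAF complexes are large chromatin remodellers that use ATP to slide or evict nucleosomes, and 10 genes for subunits known to exchange places between neural progenitors and neurons, or for the motor of the complex, were followed here through the cell classes of the embryonic rat cortex. The genes were chosen by symbol, as 10 of the 29772 genes listed in the deposited matrices. All 10 were found. They comprise 4 subunits of the progenitor form (Actl6a, Phf10, Dpf2 and Ss18), 4 of the neuronal form (Actl6b, Dpf1, Dpf3 and Ss18l1) and the ATPases Smarca4 and Smarca2.

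Primary cells from the cerebral cortex of wild-type embryos of Rattus norvegicus were freshly prepared, dissociated with papain and profiled with a droplet-based 3′ single-cell kit from 10x Genomics. There is 1 library for each of embryonic days 14, 16 and 18; since the labels are in doubt (below), each is named by its label, as in "labelled E14". How many embryos or litters were pooled is not given in the sources used here, no agent or altered allele is named for any library, and the protocol text also describes cultured cells and an antibody sort of human cells, which does not match primary rat tissue. With 1 library per label there is no replicate, so no test is given, and all intervals are 95% intervals for counting error only.

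In neural progenitors the complex is known to carry the actin-like protein BAF53a, encoded by Actl6a, a double PHD-finger protein encoded by Phf10 or Dpf2, and SS18. As cells leave the cell cycle these are replaced by BAF53b, encoded by Actl6b, by the Dpf1 and Dpf3 proteins, and by CREST, encoded by Ss18l1. Repression of Actl6a by the neuronal microRNAs miR-9* and miR-124, whose own genes are held off in progenitors by the repressor Rest, is part of the textbook account of the exchange. The neuronal complex is known for its part in dendrite growth.

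After filtering, 4286, 4977 and 5431 cells were kept in label order, with medians of 11193, 12276 and 10475 unique molecular identifiers (UMIs, each a counted transcript) per cell. The files held 62740631, 80974234 and 73727823 UMIs in all. Clusters were built anew and named from marker genes, leaving the genes described here out of the clustering. Each pair of libraries shared between 12 and 17 cell barcodes. Of the barcodes, 323, 3661 and 2674 held at least 2000 genes and at most 5% mitochondrial UMIs, so the library labelled E14 stood apart in this measure of quality, whose part in differences between libraries was not tested. The labels did not follow the order of stage genes. In radial glia, Hmga2, an early progenitor gene, stood at 11.9, 234 and 21.4 CPM (UMIs of a gene per 1000000 UMIs of the cell class) in label order, and Aldoc, a late astroglial gene, at 723, 14.6 and 239 CPM. Embryonic globins made up 14.1%, 72.4% and 11.7% of globin UMIs. Directions between libraries below are therefore directions between the libraries as labelled, and whether they follow age cannot be told apart from the labelling or the preparation.

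Radial glia, the stem cells of the cortex, numbered 397, 2257 and 1803 in label order, and intermediate progenitors, their Eomes-positive transit-amplifying offspring, 464, 464 and 1110. Newborn excitatory neurons numbered 1095, 629 and 1655. Maturing excitatory neurons numbered 2230 in the library labelled E14 and 535 in that labelled E18, and none were named in that labelled E16. The newborn class came from different clusters in different libraries. In the library labelled E14 it was mostly cluster 1 (led by Sstr2 and Unc5d), in that labelled E16 mostly cluster 12, and in that labelled E18 mostly clusters 4 (Pcp4, Hpca) and 9 (Neurod1, Nhlh1). Cluster 12 was led by Calb1 and also by Calb2, Ebf1, Lhx9 and Gad2, so that genes of Cajal-Retzius and GABAergic cells stood among its leading genes. When the library labelled E16 was clustered alone, 159 and 101 of its cells formed a pair of clusters named as GABAergic lineage, so its newborn class is the least certain. With coarser clusters 784 cells labelled E16 lay in a single cluster named Cajal-Retzius, with Calb1, Lhx9 and Ebf1 among its leading genes, and without doublet removal 526 lay in an unnamed cluster led by Calb1 and Calb2.

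The exchange was visible in every library between progenitors and neurons. Of all UMIs of the 8 exchanging subunits, the neuronal form held 16.03%, 14.4% and 12.3% in radial glia in label order. In intermediate progenitors it held 23.9%, 16.8% and 17.5%. In newborn neurons the share was 63.9%, 63.6% and 64.0%, and in maturing neurons 89.4% and 86.5% in the libraries labelled E14 and E18. Newborn neurons exceeded radial glia by 47.8 (45.4 to 50.2), 49.2 (47.1 to 51.2) and 51.7 (50.4 to 53.0) percentage points. Most of the difference between radial glia and newborn neurons lay beyond the intermediate progenitors, which exceeded radial glia by 7.84, 2.38 and 5.23 points. UMIs of Dpf1 made up much of the neuronal total (13713 of 19720 in maturing neurons labelled E14), so each exchange is also given by itself below. The height of the step depended on where the classes were drawn. With the library labelled E16 clustered alone it was 16.2 points there, and with coarser clusters it was 31.8 and 26.0 points in those labelled E14 and E18.

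**Figure D1:**
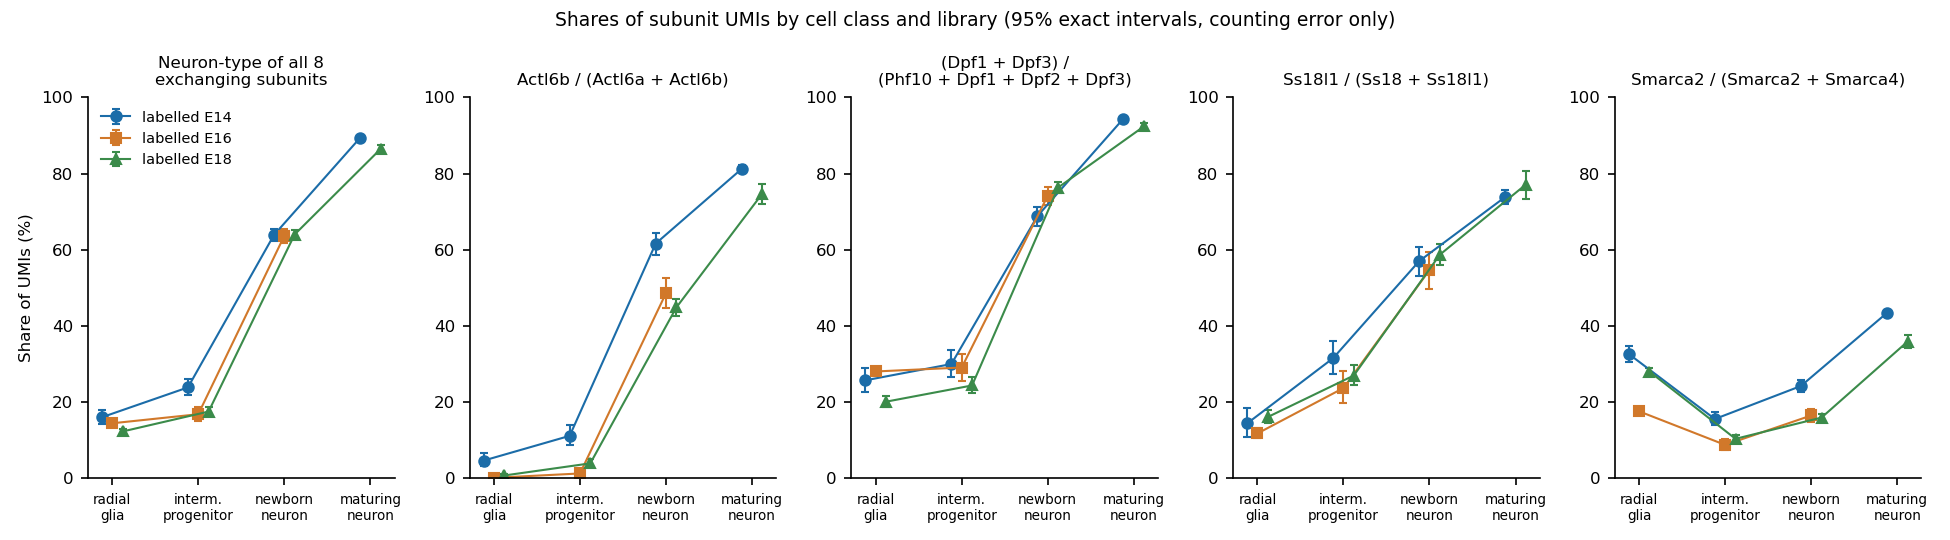
Share of subunit UMIs (percent, vertical axis) in 4 cell classes (horizontal axis), for all 8 exchanging subunits, for each exchange and for the ATPases; points are libraries as labelled, bars are 95% exact intervals and lines join the classes of a library. The neuronal share of all 8 subunits lies at or below 23.9% in both progenitor classes and at or above 63.6% in both neuron classes, while the Smarca2 share is lowest in intermediate progenitors.

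The actin-like subunits Actl6a and Actl6b differed in opposite directions. Actl6a stood at 102, 123 and 116 CPM in radial glia, at 96.7, 133 and 119.9 CPM in intermediate progenitors, and at 50.04, 60.0 and 77.1 CPM in newborn neurons, in label order. In maturing neurons it stood at 29.8 CPM in the library labelled E14 and 41.7 CPM in that labelled E18. Both progenitor classes lay above both neuron classes in every library. Newborn neurons over radial glia gave a log2 ratio of counts of -1.03 (-1.22 to -0.85), -1.04 (-1.20 to -0.88) and -0.59 (-0.69 to -0.49). Actl6a was thus lower but still counted in neurons, with UMIs in 33.7% and 39.4% of maturing neurons labelled E14 and E18, or 5.85% and 7.62% with each cell thinned to 2000 UMIs. In radial glia the thinned share was 19.6%, 21.8% and 21.0%.

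In radial glia Actl6b gave 29, 6 and 22 UMIs, or 5.00, 0.165 and 0.874 CPM. It stood at 12.1, 1.71 and 4.90 CPM in intermediate progenitors, at 80.4, 56.7 and 62.7 CPM in newborn neurons, and at 129 and 123 CPM in the maturing neurons labelled E14 and E18. Every neuron class was above every progenitor class, with no overlap. The share of all genes whose classes lie apart in this way was not counted, here or for the other members. The log2 ratio of counts of newborn neurons over radial glia was 4.01 (3.47 to 4.596), 8.43 (7.29 to 9.89) and 6.17 (5.56 to 6.85). Non-neural cells, which should lack the gene, gave the level of background. The 26 such cells labelled E14, microglial and meningeal, gave 7.71 CPM (2.83 to 16.8). The 254 labelled E16, erythroid cells among them, had no Actl6b UMI, which allows up to 0.499 CPM (3 UMIs of their total), and the 59 labelled E18 gave 3.36 CPM (0.915 to 8.59). The radial glial levels are at or below these and are read here as background, so the ratios over radial glia rest on that background and nothing is read from their spread between libraries. Intermediate progenitors exceeded the radial glia of their own library under each label, at log2 ratios of counts of 1.28 (0.63 to 1.96), 3.38 (1.73 to 5.15) and 2.49 (1.77 to 3.26). With the labels E14 and E18 their levels nonetheless lay inside the wide intervals of the few non-neural cells. Thinned to 2000 UMIs, 0 of 339 such cells of all libraries had an Actl6b UMI, which allows a share of up to 0.885%, against 14.3%, 10.3% and 11.3% of newborn neurons. Unthinned, the shares were 2.06% of the non-neural cells, at a median of 20748 UMIs, and 42.9%, 33.5% and 38.4% of newborn neurons, at medians of 7200, 8345 and 8197 UMIs.

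Of Actl6a and Actl6b UMIs together, Actl6b made up 61.6%, 48.6% and 44.8% in newborn neurons and 81.2% and 74.8% in maturing neurons. The newborn neurons labelled E14 lay above the others, whose intervals (44.7% to 52.5% and 42.7% to 47.0%) overlapped. UMIs of both were counted under the same barcodes. Among newborn neurons with an Actl6b UMI, 31.1%, 45.0% and 53.7% also had an Actl6a UMI, against 31.4%, 38.5% and 47.1% of those without. Thinned to 2000 UMIs, the values were 10.3%, 9.38% and 15.1% against 7.91%, 10.2% and 13.5%. The intervals overlapped in each library on both bases. In unthinned cells labelled E18 they barely did (49.7% to 57.6% against 44.0% to 50.2%), with the higher share in cells with Actl6b. Actl6a also had a UMI in 33.3% of 132 erythroid cells unthinned and 3.03% thinned, so expression of both in the same cell is not read from these shares, and a lower Actl6a share in newborn neurons with Actl6b was not detectable at this depth.

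The promoters of this pair are shown because the pair changes in opposite directions. They are the 250 bases before the start of each gene, 5′ to 3′ on the gene's strand, from RefSeq on the build GRCr8, which is not the build of the deposited counts. Actl6a lies at chr2:117420481-117420730 on the plus strand and Actl6b at chr12:24778152-24778401 on the minus strand. Capitals mark CCAAT or its reverse complement ATTGG.
Actl6a: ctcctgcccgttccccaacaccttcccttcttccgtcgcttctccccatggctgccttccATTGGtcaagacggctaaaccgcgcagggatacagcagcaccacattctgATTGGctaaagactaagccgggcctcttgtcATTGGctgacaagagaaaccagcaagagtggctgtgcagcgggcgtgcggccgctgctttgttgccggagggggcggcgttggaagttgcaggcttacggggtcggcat
Actl6b: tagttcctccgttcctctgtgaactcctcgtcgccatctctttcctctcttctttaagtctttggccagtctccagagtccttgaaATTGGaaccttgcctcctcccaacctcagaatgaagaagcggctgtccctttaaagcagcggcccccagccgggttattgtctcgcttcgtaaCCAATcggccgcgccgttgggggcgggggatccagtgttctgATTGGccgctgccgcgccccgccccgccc
Each holds 3 such matches. At least 1 is held by 34.3% of 27457 rat promoters of the same length, and the share holding 3 was not counted. The Actl6a promoter has 16 CpG and that of Actl6b 18, against a median of 6 over all promoters. The E-box CAGATG or its reverse complement occurs in none of the 10 promoters and in 13.7% of all. These are matches of letters in a window, not binding sites.

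**Figure D2:**
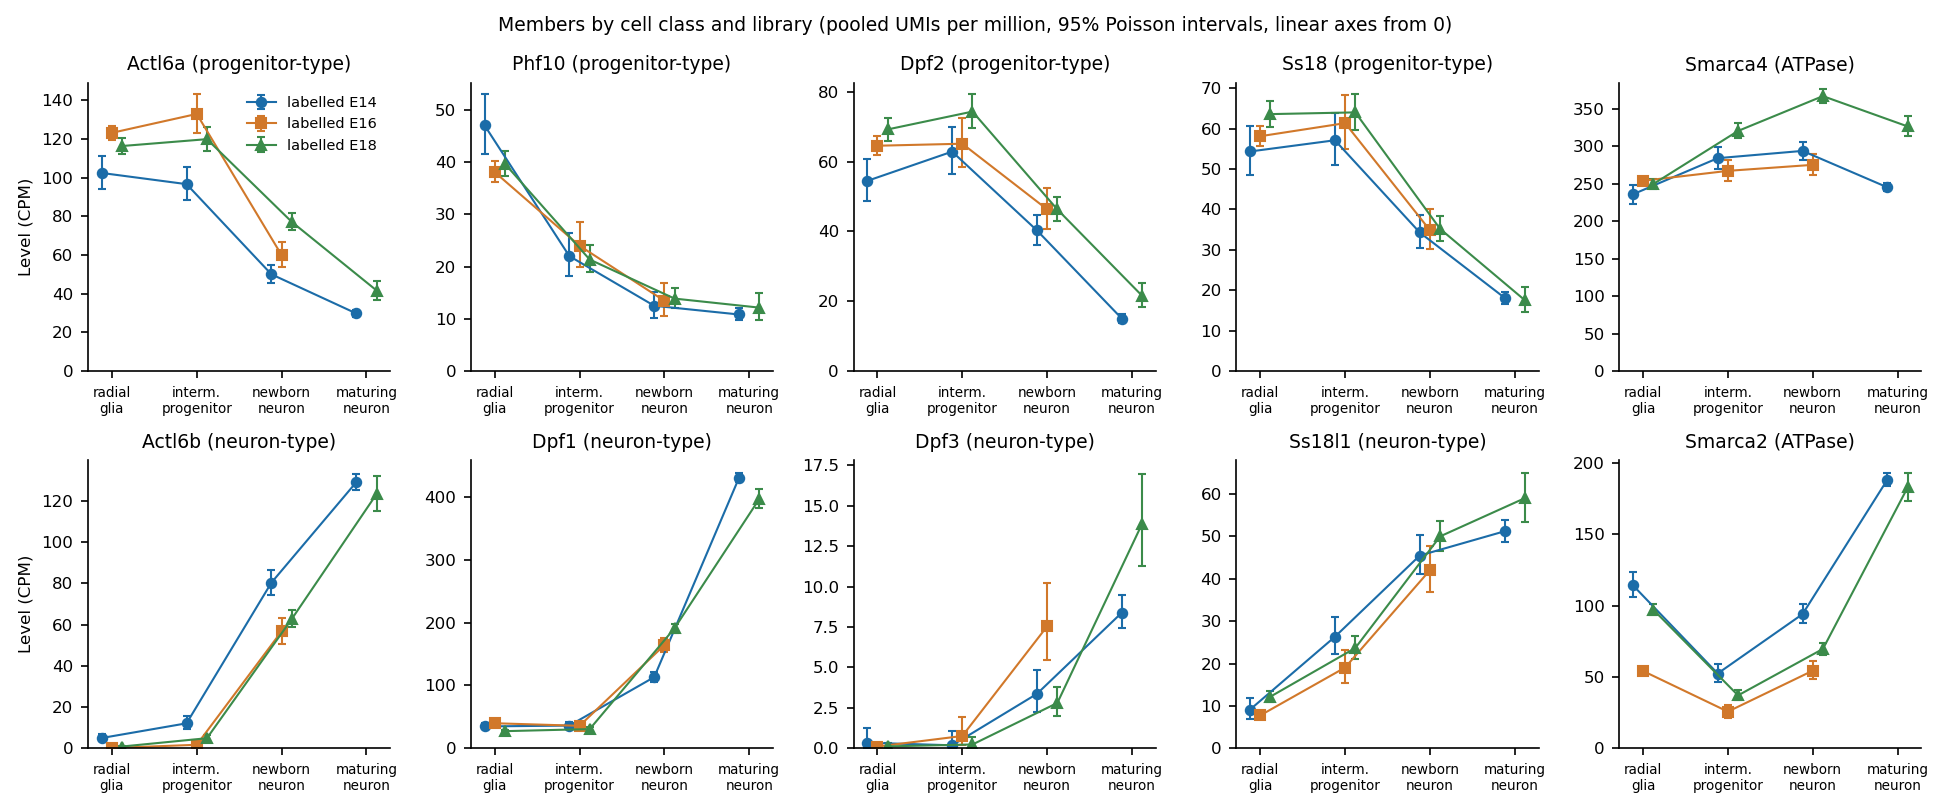
Level of each of the 10 genes (CPM, linear axes from 0) by cell class for the 3 libraries as labelled, with 95% Poisson intervals. The progenitor-type subunits are higher in radial glia than in newborn neurons and the neuron-type subunits lower in every library, Smarca4 varies little, and Smarca2 has its lowest level in intermediate progenitors.

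The PHD-finger subunits differed from each other in the steps at which their levels differed. Phf10, which encodes BAF45a, stood at 47.1, 38.1 and 39.7 CPM in radial glia and already at 22.0, 24.0 and 21.4 CPM in intermediate progenitors. It stood at 12.5, 13.5 and 13.9 CPM in newborn neurons and at 10.8 and 12.2 CPM in maturing neurons. The radial glial values did not overlap those of any later class. Dpf2, which encodes BAF45d, differed later. It stood at 54.5, 64.6 and 69.2 CPM in radial glia, 62.9, 65.1 and 74.4 CPM in intermediate progenitors, 40.3, 46.3 and 46.3 CPM in newborn neurons, and 15.04 and 21.6 CPM in maturing neurons. Maturing over newborn neurons gave log2 ratios of counts of -1.42 (-1.63 to -1.22) and -1.10 (-1.37 to -0.85) for Dpf2, and of -0.21 (-0.53 to 0.12) and -0.19 (-0.58 to 0.18) for Phf10. The differences in Phf10 lay in the steps before the newborn neurons. Intermediate progenitors over radial glia gave -1.10 (-1.42 to -0.78), -0.67 (-0.94 to -0.40) and -0.89 (-1.09 to -0.70), and newborn neurons over intermediate progenitors -0.82 (-1.21 to -0.42), -0.83 (-1.27 to -0.41) and -0.62 (-0.89 to -0.36).

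Dpf1, which encodes BAF45b of the neuronal complex, was not confined to neurons. It stood at 34.8, 39.9 and 27.3 CPM in radial glia and at 36.2, 35.8 and 30.6 CPM in intermediate progenitors, against 12.9, 3.83 and 8.39 CPM in the non-neural cells. Their intervals were 6.17 to 23.6, 2.43 to 5.74 and 4.02 to 15.4 CPM. Cluster 2 of the intermediate progenitors stood at 16.7, 16.9 and 9.65 CPM, inside these intervals with the labels E14 and E18. Clusters 11 and 17 of that class lay above them under each label. Of the radial glial clusters of at least 50 cells, only cluster 18 labelled E14 lay inside, at 22.7 CPM. In newborn neurons Dpf1 stood at 113, 164 and 191 CPM, and in maturing neurons at 431 and 397 CPM. The log2 ratio of counts of newborn neurons over radial glia was 1.70 (1.48 to 1.93), 2.04 (1.92 to 2.16) and 2.81 (2.69 to 2.93). It depended on where the classes were drawn. With coarser clusters it was -0.10 (1 CPM added) in the library labelled E14, and with the library labelled E16 clustered alone it was 0.11 there. Dpf3, which encodes BAF45c, was sparse. Radial glia held 2, 4 and 3 of its UMIs, intermediate progenitors 1, 4 and 3, and newborn neurons 28, 42 and 42. Newborn neurons stood at 3.37, 7.54 and 2.80 CPM and maturing neurons at 8.39 and 13.9 CPM. The non-neural cells gave 6.43 (2.09 to 15), 0.999 (0.366 to 2.17) and 0.839 CPM (0.0212 to 4.68). The newborn neurons labelled E14 and E18 and the maturing neurons labelled E14 lie inside the interval of their library. Their Dpf3 levels are thus not shown to be above those of these few non-neural cells. The newborn neurons labelled E16 and the maturing neurons labelled E18 lie above the interval of theirs. Radial glial clusters of at least 50 cells lay lower, at up to 0.456, 0.147 and 0.294 CPM in label order.

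Ss18, a subunit of the progenitor complex, stood at 54.3, 58.1 and 63.6 CPM in radial glia, at 57.1, 61.3 and 64.0 CPM in intermediate progenitors and at 34.3, 34.8 and 35.2 CPM in newborn neurons. In maturing neurons it stood at 18.1 and 17.5 CPM. Its 2 progenitor classes overlapped each other, and neither overlapped the newborn neurons. Ss18l1, whose product CREST is a calcium-responsive coactivator, stood at 9.14, 7.76 and 12.2 CPM in radial glia, 26.3, 19.0 and 23.7 CPM in intermediate progenitors, 45.5, 42.0 and 49.98 CPM in newborn neurons, and 51.2 and 59.0 CPM in maturing neurons. It was already higher in intermediate progenitors in every library, at a log2 ratio of counts over radial glia of 1.53 (1.06 to 2.01), 1.30 (0.95 to 1.63) and 0.96 (0.72 to 1.19). Neurod6, a transcription factor of excitatory neurons, moved with it, at 519, 237 and 532 CPM in intermediate progenitors against 48.1, 1.92 and 11.2 CPM in radial glia and 1139.7, 519.5 and 1269 CPM in newborn neurons. The part of neuronal transcripts in the Ss18l1 difference was not tested. Between newborn and maturing neurons Ss18l1 differed little, by 0.17 (0.01 to 0.34) and 0.24 (0.06 to 0.42). Its share of Ss18 and Ss18l1 UMIs was 14.4%, 11.8% and 16.1% in radial glia, 31.5%, 23.7% and 27.0% in intermediate progenitors and 57.0%, 54.7% and 58.7% in newborn neurons.

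Smarca4 encodes BRG1 and Smarca2 encodes BRM, the alternative ATPases of the complex. Smarca4 varied little across these classes. It stood at 236, 254 and 249.8 CPM in radial glia, 284, 267 and 321 CPM in intermediate progenitors, 294, 275 and 367 CPM in newborn neurons, and 245 and 327 CPM in maturing neurons. No step between classes reached 1.5-fold in any library. The nearest was newborn neurons over radial glia labelled E18, at a log2 ratio of counts of 0.56 (0.50 to 0.61).

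Smarca2 followed another course, lowest in the intermediate progenitors of each library. It stood at 114, 54.2 and 97.2 CPM in radial glia, 52.4, 25.7 and 37.1 CPM in intermediate progenitors, 94.1, 54.4 and 69.7 CPM in newborn neurons, and 188 and 183 CPM in maturing neurons. Intermediate progenitors over radial glia gave log2 ratios of counts of -1.12 (-1.33 to -0.92), -1.08 (-1.34 to -0.82) and -1.39 (-1.54 to -1.25). Newborn neurons over intermediate progenitors gave 0.84 (0.64 to 1.04), 1.08 (0.78 to 1.38) and 0.91 (0.75 to 1.07). Smarca2 made up 32.6%, 17.6% and 28.0% of ATPase UMIs in radial glia, 15.6%, 8.77% and 10.4% in intermediate progenitors and 43.4% and 35.9% in maturing neurons. Radial glia and newborn neurons overlapped in level. Their ratio was below 1 in the libraries labelled E14 and E18, and became above 1 there when maturing neurons were added to the newborn class.

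A gene was counted as different between classes where its ratio, with 1 CPM added, was at least 1.5-fold in the same direction in every library that held both classes, among genes of at least 5 CPM on average. Newborn neurons were higher than radial glia for 3 of the 10 genes, Actl6b, Dpf1 and Ss18l1, where 14.8% of 10070 genes were. They were lower for 3, Actl6a, Phf10 and Ss18, where 20.0% of genes were. Dpf2 missed the fold in each library, the ATPases were not counted, and Dpf3 was under the level minimum. Actl6a passed in the library labelled E18 at 1.502-fold, on the threshold itself. With each library clustered alone, Actl6b and Ss18l1 remained among the higher genes and Phf10 among the lower, and at a threshold of 2-fold 3 were higher and 1 lower. The median log2 ratio (1 CPM added) of the progenitor-type subunits was -0.83, -0.87 and -0.71 in label order and that of the neuron-type subunits 1.95, 2.62 and 2.36, against -0.13, -0.07 and -0.09 over all genes.

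The single steps differed in which subunits they held. Intermediate progenitors were higher than radial glia for Ss18l1 (6.35% of all genes were), with Actl6b and Dpf3 under the level minimum, and lower for Phf10 and Smarca2 (10.3% were). Newborn neurons were higher than intermediate progenitors for Actl6b, Dpf1, Ss18l1 and Smarca2 (11.1% were), and lower for Actl6a, Phf10 and Ss18 (11.1% were). Maturing neurons were higher than newborn neurons, in the libraries labelled E14 and E18, for Actl6b, Dpf1, Dpf3 and Smarca2 (8.04% were), and lower for Actl6a, Dpf2 and Ss18 (8.15% were). In the library labelled E14 the Smarca2 difference rested on cluster 10, at 330.3 CPM, while clusters 5 and 8, with 842 and 739 of the 2230 cells, were at 118 and 123 CPM against 94.1 CPM in newborn neurons, under 1.5-fold. Dpf3 was at 3.92 CPM in cluster 8 there, also under 1.5-fold over newborn cluster 1 (3.43 CPM). With the label E18, maturing cluster 15 over newborn cluster 4 was under 1.5-fold for Dpf1 (395 against 288 CPM) and Actl6b (123 against 82.5 CPM). Newborn cluster 9 was lower in both, at 51.6 and 32.7 CPM. The background given above for Dpf3 bears on its count here and between libraries.

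Within radial glia the level of Actl6a varied with the cluster. In the library labelled E14 it stood at 71.4 CPM (61.2 to 82.7) in cluster 3, led by Aldoc and Mfge8, and at 131 CPM (116 to 147) in cluster 6, led by mitotic genes. The summed level of 8 G2/M genes, Top2a and Mki67 among them, was 326 CPM in the first and 5663 CPM in the second. In the library labelled E18 the same clusters gave 105 CPM (97.9 to 112) and 122 CPM (116 to 128), at 230.1 and 4914 CPM of G2/M genes. All 3 clusters labelled E16 lay between 116 and 127 CPM. Among intermediate progenitors, Actl6a was likewise lower in cluster 2, with few G2/M transcripts (86.0, 123 and 105 CPM), than in the cycling cluster 11 (124, 141 and 137 CPM), though the intervals overlapped in the library labelled E16. The third, cluster 17, gave 89.2, 126 and 120.2 CPM at the highest G2/M levels of these progenitors. Actl6a thus did not follow the G2/M genes throughout. Dpf1 varied more among intermediate progenitors in each library. It stood at 16.7, 16.9 and 9.65 CPM in cluster 2, at 69.5, 33.6 and 45.3 CPM in cluster 11, and at 46.6, 53.9 and 47.8 CPM in cluster 17.

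**Figure D3:**
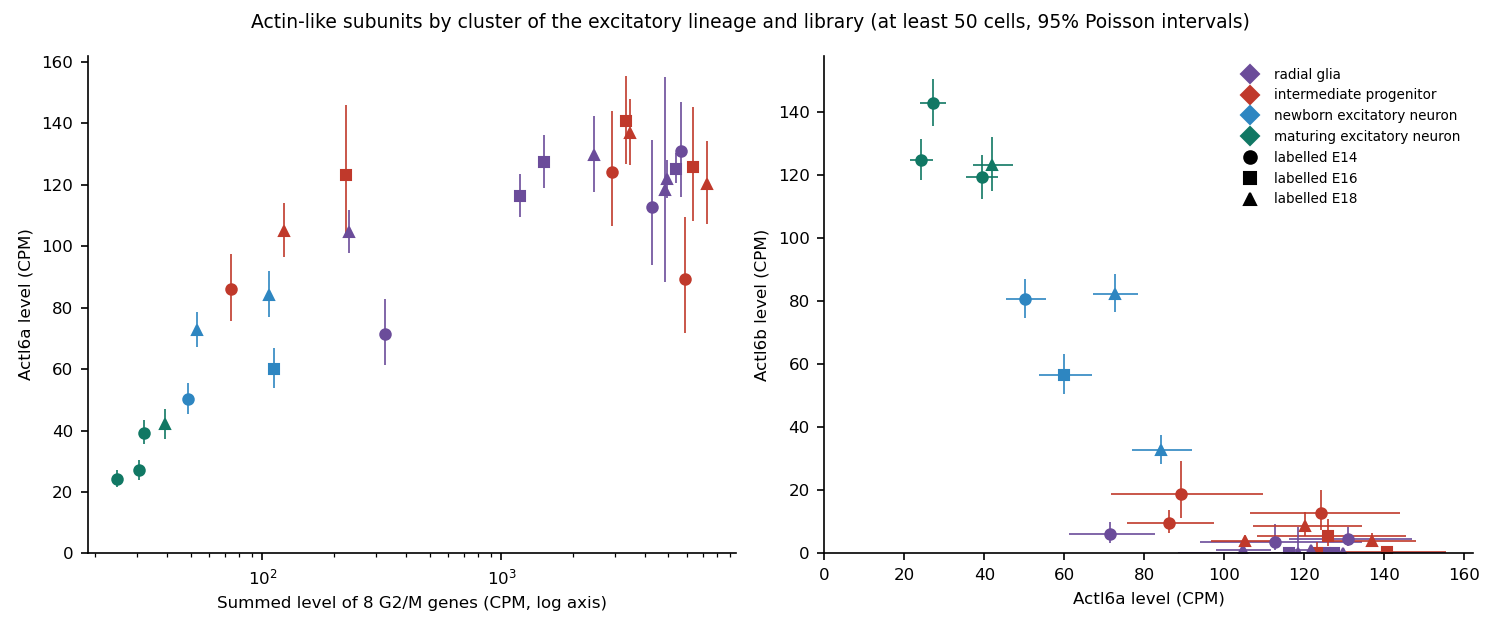
Left, level of Actl6a (CPM) against the summed level of 8 G2/M genes (CPM, log axis) in radial glial, intermediate progenitor and excitatory neuron clusters of at least 50 cells; right, level of Actl6b against Actl6a (CPM) in the same clusters. Colours are cell classes, shapes are libraries as labelled and bars are 95% Poisson intervals; among these classes the maturing neurons lie at the lowest Actl6a and highest Actl6b levels, and newborn neurons lie between them and the progenitors in Actl6b.

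The newborn neurons labelled E18 came mostly from clusters 9 and 4, with 735 and 897 of the 1655 cells. In cluster 9, led by Neurod1 and Nhlh1, Actl6b stood at 32.7 CPM, Dpf1 at 51.6 CPM, Ss18l1 at 42.6 CPM and Dpf2 at 66.5 CPM. In cluster 4, led by Pcp4 and Hpca, Actl6b stood at 82.5 CPM, Dpf1 at 288 CPM, Ss18l1 at 55.1 CPM and Dpf2 at 32.7 CPM. The neuronal share of all 8 subunits was 38.4% (36.3% to 40.6%) in cluster 9 and 73.9% (72.7% to 75.1%) in cluster 4. Actl6a differed less, at 84.1 CPM (76.9 to 91.8) and 72.7 CPM (67.2 to 78.5). Among maturing neurons labelled E14, Smarca2 was at 118, 123 and 330.3 CPM in clusters 5, 8 and 10. Cluster 10 was led by Nts, Sybu and Cdh13, and cluster 15 of the library labelled E18, in which Cdh13 was also among the leading genes, gave 184 CPM. Dpf3 was at 5.70, 3.92 and 16.03 CPM in clusters 5, 8 and 10 and at 14.2 CPM in cluster 15.

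Between libraries within radial glia, Ss18l1 was the only exchanging subunit past the fold, for the label E18 over E16. Actl6b and Dpf3 were under the level minimum there. Smarca2 was lower with the label E16 than with E14, at a log2 ratio of counts of -1.08 (-1.20 to -0.95), where 17.7% of all genes were at least 1.5-fold lower, and none of the 10 was higher (7.06% of genes were). No gene of the 10 was past the fold between the labels E18 and E14, where 4.42% of genes were higher and 9.09% lower, though 3 were with cells thinned to 2000 UMIs. Smarca2 and Ss18l1 were higher with E18 than with E16, at 0.84 (0.76 to 0.93) and 0.65 (0.41 to 0.89), where 5.65% of genes were, and none was lower (2.34% of genes were). Ss18l1 was close to the threshold, at 1.51-fold with 1 CPM added, and 1 gene of this pair was left at resolution 2, without doublet removal, with own clustering, with 5 CPM added and at a 20 CPM minimum. The low Smarca2 level went with the high Hmga2 and low Aldoc levels of the radial glia labelled E16, most of which lay in clusters 0, 13 and 14, whereas those of the other labels lay mostly in clusters 3, 6 and 18. The part of either in the difference was not tested.

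The newborn neurons differed between libraries in a few subunits. Dpf3 was higher (11.1% of genes were) and Smarca2 lower (14% were) with the label E16 than with E14. Actl6a and Dpf1 were higher with E18 than with E14 (5.28% were), at log2 ratios of counts of 0.62 (0.46 to 0.79) and 0.75 (0.65 to 0.86), and none was lower (6.64% were). The Dpf1 difference rested on cluster 4, at 288 CPM, since cluster 9, with 735 of the 1655 newborn neurons labelled E18, was at 51.6 CPM, below cluster 1 of the label E14 (115 CPM). For Actl6a, cluster 9 was at 84.1 CPM and cluster 4, with 897 cells, at 72.7 CPM, against 50.3 CPM in cluster 1. Cluster 4 by itself was under 1.5-fold. Dpf3 was lower with E18 than with E16 (7.42% were) and none was higher (7.61% were). These counts moved with the clustering. With each library clustered alone, 6 of the genes were past the fold between E16 and E14 and 4 between E18 and E16.

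In maturing neurons Dpf3 alone of the 10 was past the fold, at 0.73 (0.38 to 1.07) for the label E18 over E14 (7.81% of genes were higher and 5.73% lower). That class came from different clusters under the labels. Those labelled E14, clusters 5, 8 and 10, were at 5.70, 3.92 and 16.03 CPM, and cluster 15 labelled E18 was at 14.2 CPM. The difference thus rested on clusters 5 and 8. In intermediate progenitors, Actl6b and Smarca2 were lower with E16 than with E14 (19.5% were) and none was higher (8.97% were). Actl6b was also lower with E18 than with E14 (8.87% were, and 4.34% were higher), where both levels lie inside the intervals of the non-neural cells given above. Between E18 and E16 no gene of the 10 was past the fold in these progenitors, where 8.05% of genes were higher and 4.02% lower.

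Of 20 further BAF genes, 4 were at least 1.5-fold higher in newborn neurons in all 3 libraries and 2 lower, against 14.8% and 20.0% of all genes, so the counts are near the background. Bcl11b and Bcl11a, zinc-finger transcription factors of cortical projection neurons that also associate with the complex, gave log2 ratios of counts of 4.12, 3.93 and 5.21 and of 2.17, 1.15 and 2.39 in label order. Bcl7a, an accessory subunit, gave 1.19, 0.68 and 1.25, and Bicral, a subunit of the GLTSCR form, 0.98, 0.81 and 1.03. The lower pair were Brd7, a bromodomain subunit of the PBAF form, at -0.90, -1.22 and -0.85, and Bcl7c, at -1.02, -1.12 and -1.43. None of the 7 core and scaffold genes or the 3 ARID genes passed in the same direction in all 3 libraries. Smarcd3, a core subunit, was past the fold in each, higher with the labels E14 and E18 and lower with E16.

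Rest, the repressor of neuronal genes named above, stood at 22.1, 35.3 and 33.7 CPM in radial glia and at 1.08, 4.49 and 2.47 CPM in newborn neurons. Its log2 ratio of counts was -4.35 (-5.51 to -3.38), -2.98 (-3.61 to -2.41) and -3.77 (-4.29 to -3.30). Its corepressor partners Rcor1 and Rcor2 did not pass in all 3 libraries.

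**Figure D4:**
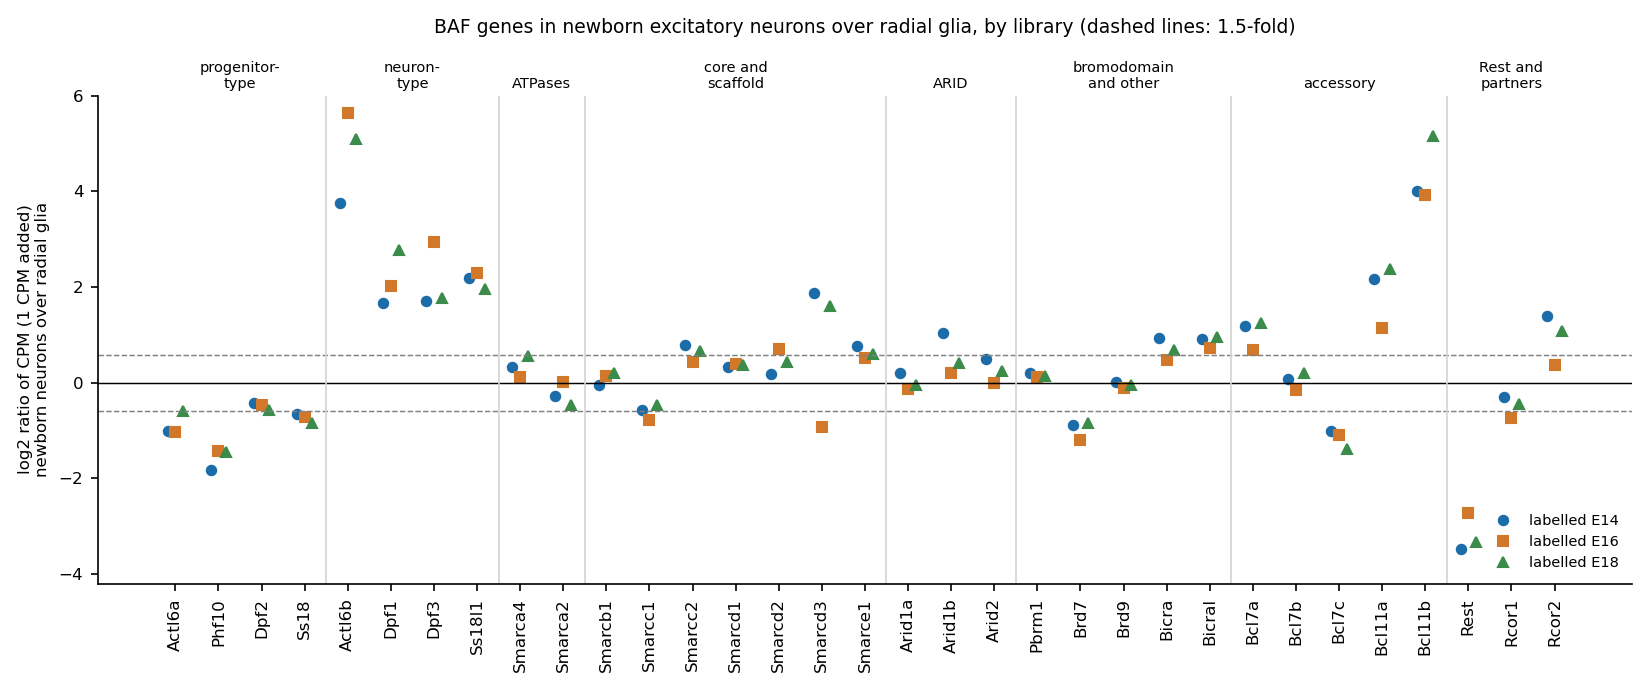
Log2 ratio of level in newborn neurons over radial glia (1 CPM added, vertical axis) for the 10 genes, 20 further BAF genes and Rest with its partners (horizontal axis); points are libraries as labelled and dashed lines mark 1.5-fold. Actl6b and Bcl11b have the highest ratios and Rest the lowest, and Smarcd3 is above the upper line in 2 libraries and below the lower line in that labelled E16.

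Over 20 profiles of a class in a library with at least 50 cells, the genes whose log2 level was most like that of Actl6a, among 6162 genes of at least 20 CPM on average, were Nudt5, Pnrc2 and Cdca4 (Pearson's r of 0.95, 0.95 and 0.95). For Actl6b they included Bmerb1 and Myt1l (0.98 and 0.98), of which Myt1l encodes a neuronal transcription factor. The profiles share libraries and classes, so these values describe the profiles and carry no p-value.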

How the data were processed

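Counts of UMIs per gene and cell barcode were deposited by the authors without normalization. They were made with Cell Ranger 6.0.1 on mRatBN7.2, per the submitters' processing notes; other upstream settings are not given in the sources used here. Barcodes with at least 1000 genes and at most 10% mitochondrial UMIs were kept, which 4444 of 7100, 5193 of 6707 and 5690 of 6937 passed in label order. The cells with the highest Scrublet scores were removed as doublets at 0.8% per 1000 cells (158, 216 and 259 cells), since Scrublet's own threshold marked 2.43%, 0.0578% and 2.55%. Cells of all libraries were clustered together without integration (Scanpy 1.11.5; 2000 variable genes without the 10 genes, the other BAF genes, Rest and its partners, 30 principal components, 15 neighbours, Leiden resolution 1). Of 25 clusters, 24 were named from 129 marker genes of 14 classes; 1, of 788 cells, stayed unnamed. In 13 clusters, with 64.0% of cells, over 90% came from 1 library.

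Levels are the summed UMIs of a gene over those of all genes in the same class of the same library (CPM). Intervals are Clopper-Pearson for shares, Poisson for levels and conditional exact for ratios of counts. Labels have 1 library each, so a group's files give no replicate and no p-value. The 10 genes and all lists were chosen with earlier results of these data known. Named genes are the 10, those of the other BAF list past 1.5-fold in all 3 libraries, and the 3 most correlated with Actl6a and with Actl6b (1 is not reported here); cluster leading genes and stage genes were added to describe samples. The counting of calls was checked on simulated data. Promoters are from RefSeq tables of GRCr8, matched by symbol. Python 3.11.15, scipy 1.17.1 and leidenalg 0.10.2 were used.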

Additional observations from a re-analysis of the deposited data

Results flagged for a closer look

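Smarcd3, which encodes the BAF60c subunit, differed between newborn neurons and radial glia in opposite directions among the libraries. Its log2 ratio (1 CPM added) was 1.88 in the library labelled E14, -0.93 in that labelled E16 and 1.60 in that labelled E18. The newborn neurons stood at 141, 25.5 and 138 CPM and the radial glia at 37.8, 49.6 and 44.9 CPM. The difference between the libraries was not tested, since each label has 1 library, and the newborn neurons labelled E16 were a cluster of their own.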

How the results depend on the processing

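No paired analysis was possible because each label has 1 library. The excess of the neuronal share in newborn neurons over radial glia (47.8, 49.2 and 51.7 points in label order) was 31.8 and 26.0 points in the libraries labelled E14 and E18 at Leiden resolution 0.5, and 54.2 in that labelled E14 without doublet removal. It was 27.6 in that labelled E18 with at least 2000 genes and at most 5% mitochondrial UMIs, 53.2 there in thinned cells, 55.8, 16.2 and 50.03 with each library clustered alone, and 70.1 and 60.6 in those labelled E14 and E18 with maturing neurons pooled in, an alternative chosen after seeing the data. Of the 3 genes lower in all libraries, 1 was left with own clustering and 1 at 2-fold. Counts past the fold between libraries moved as follows. In radial glia, E18 over E16 gave 1 in place of 2 at resolution 2, without doublet removal, with own clustering, with 5 CPM added and at a 20 CPM minimum, and E18 over E14 gave 3 in place of 0 in thinned cells. In newborn neurons, E16 over E14 (2) gave 6 with own clustering, 6 with pooled neurons and 1 with 5 CPM added or a 20 CPM minimum. E18 over E14 (2) gave 4 at resolution 0.5 and 1 in thinned cells or with 5 CPM added. E18 over E16 (1) gave 0 at resolution 2 and at a 20 CPM minimum, 4 with own clustering, 3 in thinned cells and 2 with pooled neurons. Log2 ratios that changed sign were Dpf1 labelled E14 at resolution 0.5 (-0.10 against 1.67), Dpf3 labelled E18 with the stricter cell filter (-0.14 against 1.76) and Smarca2 with pooled neurons (0.56 against -0.28 labelled E14, 0.12 against -0.48 labelled E18). The cause was not tested. Of the other values for single genes, 141 stayed within their counting interval and 55 moved. At resolution 0.5, without doublet removal and with the stricter filter, the library labelled E16 had too few cells named newborn neurons for a value, since its cluster was then named Cajal-Retzius (resolution 0.5) or stayed unnamed. With the stricter filter the library labelled E14 gave none either, with 10 newborn neurons left. Depth limits Dpf3 and Actl6b in progenitors.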

Other observations

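Outside the excitatory lineage the balance of subunits also differed between cell types. GABAergic cells, which migrate in from the ventral forebrain, had a neuronal share of 85.1% (79.4% to 89.7%) in 55 cells labelled E14 and 87.5% (83.0% to 91.1%) in 69 cells labelled E18, with Actl6b at 159 and 134 CPM. No Dpf3 UMI was counted in them, which allows up to 9.01 and 7.87 CPM (3 UMIs of their totals). Cajal-Retzius cells, the Reln-secreting first neurons of the cortical surface, had a share of 72.7% (64.8% to 79.6%) in 16 cells labelled E14, 52.8% (48.5% to 57.0%) in 149 labelled E16 and 55.4% (50.5% to 60.2%) in 73 labelled E18. Their Phf10 level was 15.7, 45.7 and 27.1 CPM in label order, against 12.5, 13.5 and 13.9 CPM in newborn neurons.

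Choroid plexus cells, the epithelium that secretes cerebrospinal fluid, had neuronal shares of 3.16% (1.64% to 5.45%) in 54 cells labelled E16 and 6.93% (4.58% to 9.99%) in 37 labelled E18. Phf10 stood at 117 and 83.0 CPM there and Smarca2 at 163 and 193 CPM, above the radial glia of the same libraries (38.1 and 39.7 CPM for Phf10, 54.2 and 97.2 CPM for Smarca2). Meningeal or fibroblast-like cells, among whose leading genes were the endothelial genes Cldn5 and Col4a1, had shares of 18.2% (12.2% to 25.5%) in 16 cells labelled E14, 5.38% (3.40% to 8.03%) in 124 labelled E16 and 8.90% (4.83% to 14.7%) in 38 labelled E18. The 755 cells labelled E16 of the unnamed cluster, led by S-phase genes and Wnt8b, had a share of 17.7% (16.4% to 19.1%), with Actl6a at 117 CPM and Actl6b at 0.301 CPM.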
